A study of Homo sapiens with 60 samples.

Results

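The 10 genes described here encode subunits, inhibitors and target genes of NF-kB. They are NFKB1, RELA, NFKBIA and TNFAIP3 of the canonical arm, NFKB2, RELB and BIRC3 of the noncanonical arm, and the target genes TNFAIP2, ICAM1 and SOD2. They were chosen by name, with no measured value in the rule, though earlier results of these data were known at that choice. They are 10 of the 60675 genes in the table of expected counts. All 10 were above the filter on low counts that left 18396 genes for testing. Their messages were followed across 60 RNA sequencing libraries of A549 cells, a line grown from a human lung carcinoma, after 24 h with ethanol extracts of 4 single herbs and 4 herbal formulas or with vehicle.

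Cells received Polygalae Radix at 15.2, 76 or 380 µg/mL, or Aucklandiae Radix at 14.8, 74 or 370 µg/mL, and each of these doses has 2 libraries. The other 6 extracts shared the doses 20, 100 and 500 µg/mL. Among them the herbs Saposhnikoviae Radix and Menthae Herba and the formulas Guibi-tang and Saengmaek-san have 3 libraries for each dose, the formula Soyo-san has 2 and the formula Okbyeongpung-san has 1. The doses of each extract are called low, medium and high. The first 2 extracts were dosed from their IC20 downwards because it lay under 500 µg/mL, per the series description. The vehicle group held 3 libraries and is labelled 0.1% DMSO, whereas the series description names 2%, and which of these was used was not settled. Libraries that gave no result because of low RNA concentration had been left out by the submitters, per the series description. No label says that replicates came from separate cultures, so p-values measure the spread between libraries, which may be technical.

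NF-kB is a family of paired transcription factors that wait in the cytoplasm until a signal frees them. In the canonical arm, receptors for TNF and interleukin-1 activate the IKK complex, IkB-alpha (NFKBIA) is degraded, and the p50 (from NFKB1) and RELA pair enters the nucleus. In the noncanonical arm, receptors such as CD40 and the lymphotoxin-beta receptor stabilise the kinase NIK (MAP3K14), p100 (from NFKB2) is cleaved to p52, and p52 pairs with RELB. NFKBIA, TNFAIP3, NFKB2, RELB and BIRC3 are themselves well known NF-kB target genes, which makes their messages a common readout of the pathway in lung epithelial cells. An mRNA level says nothing of cleavage, degradation or nuclear entry of a protein, and none of these was measured.

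The kB sites found before the starts of these genes are shown because both arms act through this motif. They include those of NFKB1, whose message changed least, beside those of the genes that changed most. The 10-base kB consensus was searched on both strands in the 250 bases before each RefSeq start (GRCh38.p14), with overlapping matches counted as 1 site. Of 35116 starts, 5.21% held a site and 0.253% held 2 or more. Of the 10 genes, 9 were matched by symbol, with 16 starts between them, and RELB is named only. A site lay before a start of 5 genes, and 3 of them had a start with 2 sites. These are counts of genes over any of their starts, whereas the shares above are of single starts, so they are unlike measures. Capitals mark the kB matches, and each line is read 5′ to 3′ along the gene.
NFKB1 (chr4:102501270-102501328, plus strand, site ending 40 bases before the start): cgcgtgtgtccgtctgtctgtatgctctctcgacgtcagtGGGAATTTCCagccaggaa
NFKB2 (chr10:102394462-102394490, plus strand, site ending 97 bases before the second start listed): aaacgtcatGGGAATTCCCCcctccgggg
NFKB2 (chr10:102394490-102394519, plus strand, site ending 69 bases before the second start listed): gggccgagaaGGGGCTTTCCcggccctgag
NFKB2 (chr10:102395519-102395548, plus strand, site ending 167 bases before the third start listed): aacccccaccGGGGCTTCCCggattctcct
NFKB2 (chr10:102395674-102395703, plus strand, site ending 12 bases before the third start listed): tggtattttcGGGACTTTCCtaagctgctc
NFKBIA (chr14:35404781-35404870, minus strand, site ending 72 bases before the start): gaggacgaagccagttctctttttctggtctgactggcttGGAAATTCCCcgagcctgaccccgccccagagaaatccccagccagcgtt
TNFAIP3 (chr6:137867188-137867217, plus strand, the nearer site ending 46 bases before the start): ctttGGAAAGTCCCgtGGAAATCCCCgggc
BIRC3 (chr11:102317245-102317398, plus strand, the nearer site ending 126 bases before the start): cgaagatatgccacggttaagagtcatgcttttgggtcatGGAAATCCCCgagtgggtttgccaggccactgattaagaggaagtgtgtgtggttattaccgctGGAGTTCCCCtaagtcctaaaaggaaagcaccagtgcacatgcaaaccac
The windows of NFKB2 and TNFAIP3 lie inside the gene as GENCODE 29 draws it. No match was found in these windows for RELA, TNFAIP2, ICAM1 or SOD2, which says only that these letters are not there.

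Expected counts summed to between 17113963 and 33363661 per library. CPM (counts scaled to a common library total after TMM) is a share of all messages, so fewer copies per cell and fewer contributing cells cannot be told apart. The epithelial markers KRT8 and KRT18 were high in every library (441 to 4927 and 390 to 3728 CPM), and the others of that list lower, with CDH1 at 11.8 to 35.9 CPM and EPCAM at 2.13 to 7.14 CPM. Among leukocyte genes CD3E was at 0 in all 60 libraries and PTPRC in 55, but CD14 was at 0 in none (0.152 to 6.00 CPM). Of the fibroblast genes DCN was at 0 in 44 libraries, while COL1A1 lay at 10.9 to 39.7 CPM, above EPCAM, and the 3 endothelial genes summed to 0.368 CPM or less. The libraries fell into 2 classes that no label names, with a gene lacking a symbol (ENSG00000282955) at 3.504 CPM or less in 38 libraries (class 1) and at 17.648 CPM or more in 22 (class 2). All vehicle, Soyo-san and Okbyeongpung-san libraries were of class 2. Those of Menthae Herba and Aucklandiae Radix were all of class 1, and 9 groups were mixed. With the groups held equal, 48% of genes differed between the classes (edgeR). Among the 10 genes RELA and NFKBIA were higher in class 2, by 0.32 ± 0.03 and 0.14 ± 0.03 on the log2 scale (SE), and BIRC3 and SOD2 lower, by −0.23 ± 0.05 and −0.23 ± 0.02, all past an adjusted p of 0.05. Vehicle also has a library set of its own, so a difference from vehicle is also one between sets. High and low doses of an extract share a set, so that comparison is given beside it, and class values stand beside a result where they change it.

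In vehicle libraries the order of the 10 messages per kilobase of annotated exon ran from TNFAIP2, at 66.4 ± 1.92 CPM per kb (SD, n = 3), through NFKBIA (18.6 ± 0.695), RELA (15.4 ± 0.184) and NFKB2 (11.8 ± 0.497) to RELB (5.27 ± 0.240) and NFKB1 (5.18 ± 0.263). SOD2 (4.59 ± 0.187 CPM per kb), BIRC3 (3.94 ± 0.239), TNFAIP3 (1.13 ± 0.0246) and ICAM1 (0.258 ± 0.0513) followed. RELB and NFKB1 did not differ beyond their spread in this order. The order depends on the length of all annotated exons, which was 16493 bases for SOD2 and 3035 for RELB. Without that division SOD2 stood above RELB, at 75.6 against 16.0 CPM in vehicle libraries. Across the 60 libraries, the highest CPM was 1.28 times the lowest for NFKB1 and 6.28 times for BIRC3, the narrowest and the widest ranges of the 10.

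At the high dose, 2 herbs moved single genes among the 10 well past the replicate spread. The median log2 fold change of the 10 over vehicle was 0.01 with Polygalae Radix and 0.24 with Aucklandiae Radix, against 0.05 and 0.02 over all genes. With Polygalae Radix the largest rises were those of the canonical inhibitors TNFAIP3 and NFKBIA, and with Aucklandiae Radix those of BIRC3 and NFKB2 of the noncanonical arm. Aucklandiae Radix also raised TNFAIP3 and NFKBIA, by less, and RELB rose with both herbs, so the calls did not divide by arm. In the canonical arm 2 of 4 genes rose with each herb, and in the noncanonical arm 1 of 3 rose with Polygalae Radix and 3 of 3 with Aucklandiae Radix. NFKB1 passed the test against vehicle with none of the 7 extracts that were tested. Against vehicle, edgeR's quasi-likelihood test with Benjamini-Hochberg adjustment over all genes (threshold 0.05) called 4 of the 10 genes with Polygalae Radix, where it called 59.6% of all genes tested, and 6 with Aucklandiae Radix, where it called 35.7%. It called 4 with Menthae Herba (29.6% of all genes), 2 with Guibi-tang (9.56%) and 4 with Soyo-san (28.6%). It called 0 with Saposhnikoviae Radix (1.04% of all genes), with 0 of the 10 at an unadjusted p under 0.05 and 0 called by DESeq2. It also called 0 with Saengmaek-san (3.79% of all genes), with 1 at an unadjusted p under 0.05 and 0 called by DESeq2. The shares are therefore near or below the background for Polygalae Radix, Menthae Herba and Soyo-san, and the sizes of single genes carry more than the counts.

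**Figure D1:**
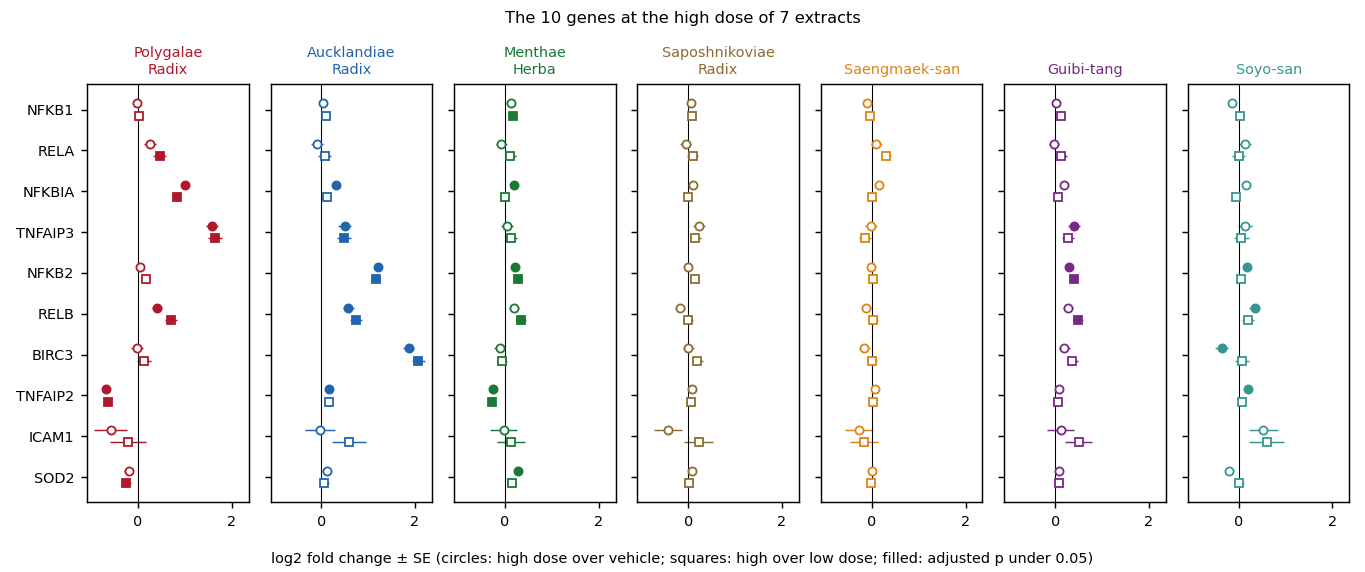
Log2 fold change with SE of the 10 genes at the high dose of 7 extracts, over vehicle (circles) and over the low dose of the same extract (squares), with filled symbols for an adjusted p under 0.05. BIRC3 with Aucklandiae Radix lies farthest to the right (1.86 over vehicle, 2.06 over the low dose), followed by TNFAIP3 with Polygalae Radix (1.59 and 1.64), and NFKB1 stays within 0.18 of 0 in every panel.

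NFKB1, which encodes p105 and p50, was the steadiest of the canonical genes. It stood at 32.4 and 31.4 CPM in Polygalae Radix high dose libraries and at 33.6 and 33.3 CPM in Aucklandiae Radix high dose libraries, against 30.6, 33.9 and 32.7 CPM in vehicle libraries. The groups overlap for both herbs, and the 95% intervals of the log2 fold change ran from −0.14 to 0.10 for Polygalae Radix and from −0.07 to 0.16 for Aucklandiae Radix. The one call for NFKB1 was Menthae Herba, at 34.8, 35.7 and 36.0 CPM in the high dose libraries and 31.4, 32.8 and 29.9 CPM in the low dose libraries, which do not overlap. The log2 fold change was 0.18 ± 0.05 (edgeR adjusted p = 0.015), where 15.5% of all genes were called, and it was not past the threshold without high dose replicate 3 or low dose replicate 3.

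RELA, the transactivating partner of p50, differed with the library class within mixed groups. Polygalae Radix high dose libraries held 122 CPM (class 2) and 80.3 CPM (class 1), against 83.9, 85.6 and 83.7 CPM in vehicle libraries, all of class 2. These ranges overlap. Over the low dose (74.8 and 72.0 CPM, both class 1) RELA rose by 0.46 ± 0.14 (edgeR adjusted p = 0.0051). Within class 1, where 1 high dose library is left and is assumed to vary like the other groups, the difference was 0.13 ± 0.07 (adjusted p = 0.123), and without high dose replicate 2 the adjusted p was 0.506. Within class 2 the same herb stood 0.54 ± 0.07 above vehicle, again with 1 high dose library (edgeR adjusted p = 1.25e-08). For Aucklandiae Radix, Menthae Herba and Guibi-tang the sign of RELA against vehicle turned with class as a covariate, and those values stand with the other alternatives.

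NFKBIA encodes IkB-alpha, the inhibitor that resets the canonical arm. With Polygalae Radix it reached 96.3 and 80.3 CPM at the high dose, 65.8 and 56.3 CPM at the medium dose and 49.3 and 49.7 CPM at the low dose, against 42.4, 45.6 and 44.4 CPM in vehicle libraries. Each dose lies above the one under it with no overlap, and the low dose above vehicle. The medium and the high dose have 1 library of each class and the low dose has class 1 only, while NFKBIA is higher in class 2. NFKBIA rose 2.00-fold at the high dose over vehicle (log2 1.00 ± 0.08, edgeR adjusted p = 1.11e-14) and by 0.83 ± 0.09 over the low dose (adjusted p = 4.35e-11), where 57% of all genes were called. At the medium dose it rose by 0.47 ± 0.08 over vehicle (edgeR adjusted p = 2.16e-05), where 18.3% of all genes were called. Aucklandiae Radix high dose libraries, at 54.0 and 56.1 CPM, also lay above vehicle, by 0.32 ± 0.08 (adjusted p = 0.00129), but over their low dose (50.8 and 49.96 CPM) the difference was 0.13 ± 0.09 and did not pass. Menthae Herba high dose libraries held 51.5, 45.5 and 53.5 CPM, overlapping vehicle, and the call there (0.19 ± 0.07, edgeR adjusted p = 0.0431) was lost in 5 of 6 fits that left out 1 library.

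TNFAIP3 encodes A20, a ubiquitin-editing enzyme that ends TNF signalling. Polygalae Radix libraries held 17.4 and 16.8 CPM at the high dose, 10.0 and 7.80 CPM at the medium dose and 4.34 and 6.59 CPM at the low dose, against 5.58, 5.82 and 5.66 CPM in vehicle libraries. The high and the medium dose lie above vehicle without overlap, while the low dose spans it. The rise was 3.01-fold at the high dose over vehicle (log2 1.59 ± 0.13, edgeR adjusted p = 7.23e-14) and 1.64 ± 0.15 over the low dose (adjusted p = 9.5e-13). The medium dose stood 0.64 ± 0.14 above vehicle (edgeR adjusted p = 0.000665) and 0.69 ± 0.15 above the low dose (adjusted p = 0.00128), where 11.8% of all genes were called. The call of the medium over the low dose, and that of NFKBIA, was lost inside class 1, where 1 medium dose library is left. Both were also lost with only the libraries compared, where 0 of all genes were called. Within class 1, with 1 high dose library, the rise over the low dose was 1.62 ± 0.16, and within class 2, also with 1, the rise over vehicle was 1.61 ± 0.15.

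A smaller TNFAIP3 rise appeared with Aucklandiae Radix, whose high dose libraries held 8.40 and 7.69 CPM. These lie above vehicle by 0.50 ± 0.14 (edgeR adjusted p = 0.00345) and above the low dose, at 5.39 and 6.15 CPM, by 0.48 ± 0.15 (adjusted p = 0.0191). Neither group overlaps the high dose. Without high dose replicate 2 the edgeR adjusted p was 0.0585 over vehicle and 0.155 over the low dose, and without low dose replicate 2 it was 0.198 over the low dose. Guibi-tang high dose libraries held 7.52, 6.97 and 7.99 CPM, also above vehicle by 0.39 ± 0.12 (edgeR adjusted p = 0.036), and this call was lost in 5 of 6 fits that left out 1 library. TNFAIP3 has an antisense gene across its exons, with a median count of 2.

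**Figure D2:**
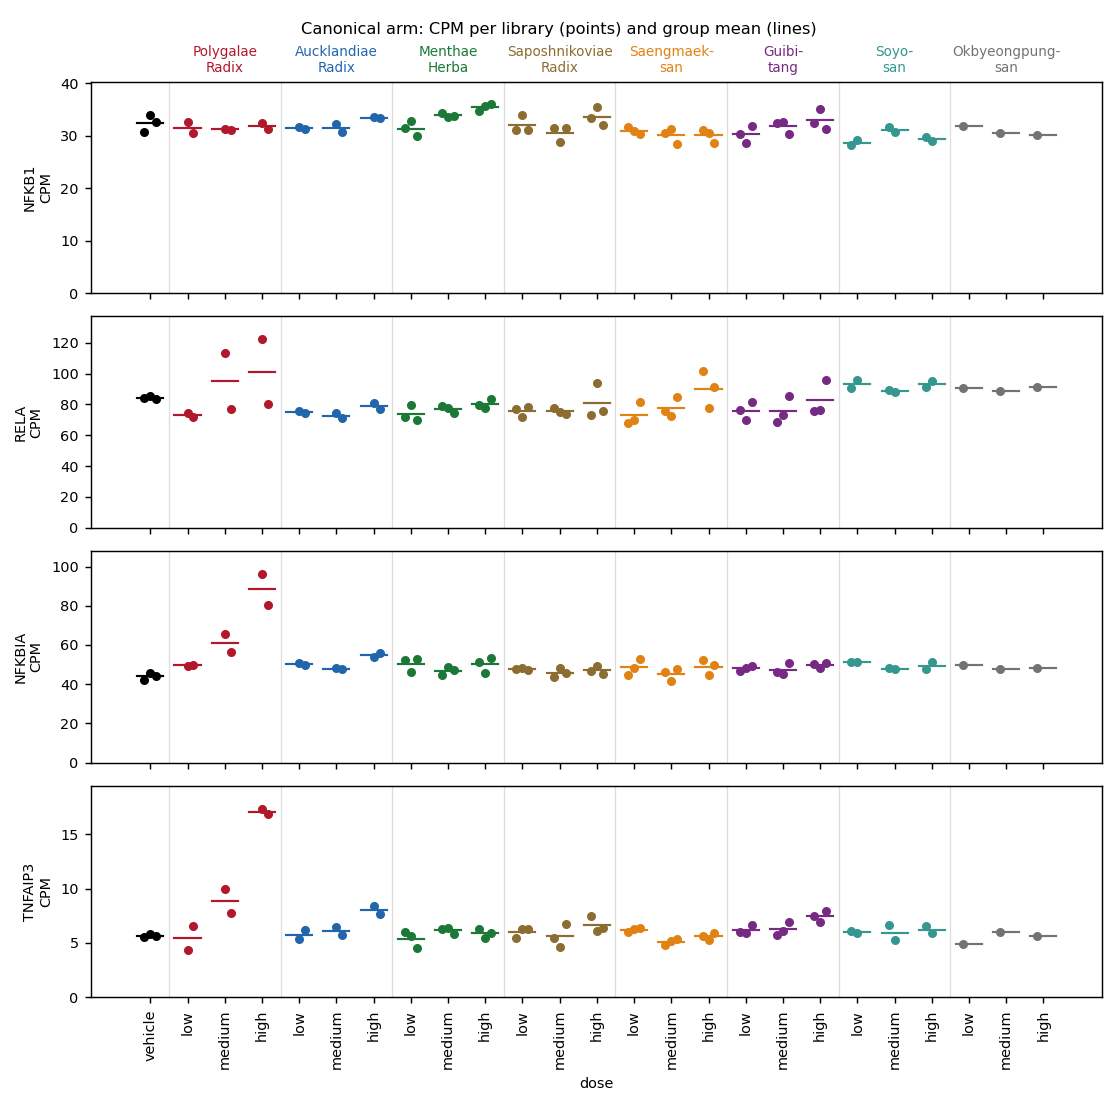
CPM of NFKB1, RELA, NFKBIA and TNFAIP3 in each of the 60 libraries (points) with the group mean (lines), for vehicle and the low, medium and high dose of 8 extracts. NFKBIA (up to 96.3 CPM) and TNFAIP3 (up to 17.4 CPM) climb with the dose of Polygalae Radix, NFKB1 lies between 28.2 and 36.0 CPM throughout, and RELA is split within mixed groups.

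NFKB2 encodes p100, the precursor of p52 and itself an inhibitor of RELB. With Aucklandiae Radix it stood at 125 and 121 CPM at the high dose, 57.8 and 54.3 CPM at the medium dose and 53.5 and 56.0 CPM at the low dose, against 51.2, 51.8 and 55.4 CPM in vehicle libraries. The 2 high dose libraries are the highest of all 60, while the lower doses overlap each other. NFKB2 rose 2.32-fold over vehicle (log2 1.22 ± 0.07, edgeR adjusted p = 1.82e-17) and 2.24-fold over the low dose (log2 1.16 ± 0.08, adjusted p = 2.76e-15), where 18.4% of all genes were called. All libraries of this extract are of class 1, so the comparison over the low dose holds no class difference. Between the medium and the low dose of Aucklandiae Radix edgeR called 0 of the 10 genes, with 0 at an unadjusted p under 0.05 and 0 by DESeq2, where it called 0.00544% of all genes. The intermediate dose thus gave no call at 74 µg/mL, and no dose between 74 and 370 µg/mL was measured.

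Smaller NFKB2 rises came with Guibi-tang and Menthae Herba, while Soyo-san gave a call over vehicle only. Guibi-tang high dose libraries held 64.9, 62.4 and 66.7 CPM, against 51.7, 47.5 and 47.9 CPM at its low dose, a rise of 0.40 ± 0.06 (edgeR adjusted p = 2.86e-05) where 2.94% of all genes were called. The groups do not overlap, and the call held in all 6 fits that left out 1 library. Menthae Herba high dose libraries held 66.1, 58.2 and 58.7 CPM, against 52.5, 50.05 and 47.7 CPM at its low dose, again without overlap (0.29 ± 0.06, edgeR adjusted p = 0.000805). Over vehicle the differences were 0.29 ± 0.06 for Guibi-tang (edgeR adjusted p = 0.0015) and 0.21 ± 0.06 for Menthae Herba (adjusted p = 0.00969), of which the second did not pass without Menthae Herba high dose replicate 1. Soyo-san high dose libraries, at 55.0 and 64.7 CPM, overlap vehicle (0.18 ± 0.07, edgeR adjusted p = 0.0491), and over the low dose, at 56.4 and 60.1 CPM, the difference was 0.04 ± 0.08. The Soyo-san call over vehicle was lost in 3 of 5 fits that left out 1 library.

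In Polygalae Radix libraries NFKB2 did not follow NFKBIA. The high dose held 61.1 and 47.7 CPM, the medium dose 44.2 and 43.0 CPM and the low dose 47.7 and 48.6 CPM. The medium dose lay below every vehicle library, by −0.28 ± 0.07 (edgeR adjusted p = 0.00453), while at the high dose the libraries fall on both sides of vehicle (0.04 ± 0.07, interval −0.10 to 0.18). Within class 2, with 1 high dose library, the high dose stood 0.21 ± 0.08 above vehicle (edgeR adjusted p = 0.0172).

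RELB, the partner of p52, was the gene raised by the most extracts over their own low dose. Aucklandiae Radix high dose libraries held 23.3 and 24.5 CPM, against 13.7 and 14.8 CPM at the low dose and 16.1, 15.2 and 16.7 CPM in vehicle libraries. Polygalae Radix high dose libraries held 21.9 and 20.7 CPM, against 12.4 and 13.8 CPM at the low dose. Neither high dose overlaps its low dose or vehicle. Over the low dose RELB rose by 0.74 ± 0.12 with Aucklandiae Radix (edgeR adjusted p = 1.28e-05), by 0.70 ± 0.12 with Polygalae Radix (adjusted p = 6.43e-06), by 0.48 ± 0.10 with Guibi-tang (adjusted p = 0.00256) and by 0.34 ± 0.10 with Menthae Herba (adjusted p = 0.0164). The Menthae Herba value did not pass without high dose replicate 1 or without low dose replicate 3. Over vehicle, RELB was called with Aucklandiae Radix (0.58 ± 0.11, edgeR adjusted p = 6.32e-05), Polygalae Radix (0.41 ± 0.11, adjusted p = 0.00172) and Soyo-san (0.34 ± 0.11, adjusted p = 0.0216). The Soyo-san call was lost without its high dose replicate 2 and without vehicle replicate 2.

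BIRC3 encodes cIAP2, a ubiquitin ligase that holds NIK low and carries TNF signals to the canonical arm. With Aucklandiae Radix it stood at 111 and 104 CPM at the high dose, 31.5 and 29.7 CPM at the medium dose and 23.6 and 27.8 CPM at the low dose, against 29.97, 27.7 and 31.2 CPM in vehicle libraries. The 2 high dose libraries are far above the other 58, of which the highest was 36.3 CPM in a Guibi-tang high dose library. BIRC3 rose 3.63-fold over vehicle (log2 1.86 ± 0.12, edgeR adjusted p = 1.45e-15) and 4.18-fold over the low dose (log2 2.06 ± 0.14, adjusted p = 9.22e-15). With class as a covariate, which for this extract rests on other groups, the rise over vehicle was 1.63 ± 0.10.

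BIRC3 moved the other way with other extracts. In Soyo-san libraries it stood at 22.2 and 23.8 CPM at the high dose and 21.5 and 22.5 CPM at the low dose. The medium dose held 21.2 and 23.9 CPM, and all 3 doses lay below every vehicle library. The fall was −0.36 ± 0.13 at the high dose (edgeR adjusted p = 0.0339) and −0.43 ± 0.13 at the low dose (adjusted p = 0.0351), where 10.7% of all genes were called. The high dose call was lost in 4 of 5 fits that left out 1 library. Between the high and the low dose of Soyo-san the difference was 0.06 ± 0.15, and the 95% interval ran from −0.24 to 0.36. The medium dose of Soyo-san was not called against vehicle (edgeR adjusted p = 0.201). Okbyeongpung-san libraries, which share the library set of Soyo-san, were below every vehicle library as well, at 19.1 to 21.5 CPM. Extract and library set cannot be told apart in this difference from vehicle. Polygalae Radix medium dose libraries, at 17.7 CPM (class 2) and 23.7 CPM (class 1), also lay below vehicle, by −0.51 ± 0.13 (edgeR adjusted p = 0.00507), whereas its high dose, at 27.9 and 30.5 CPM, overlapped vehicle.

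**Figure D3:**
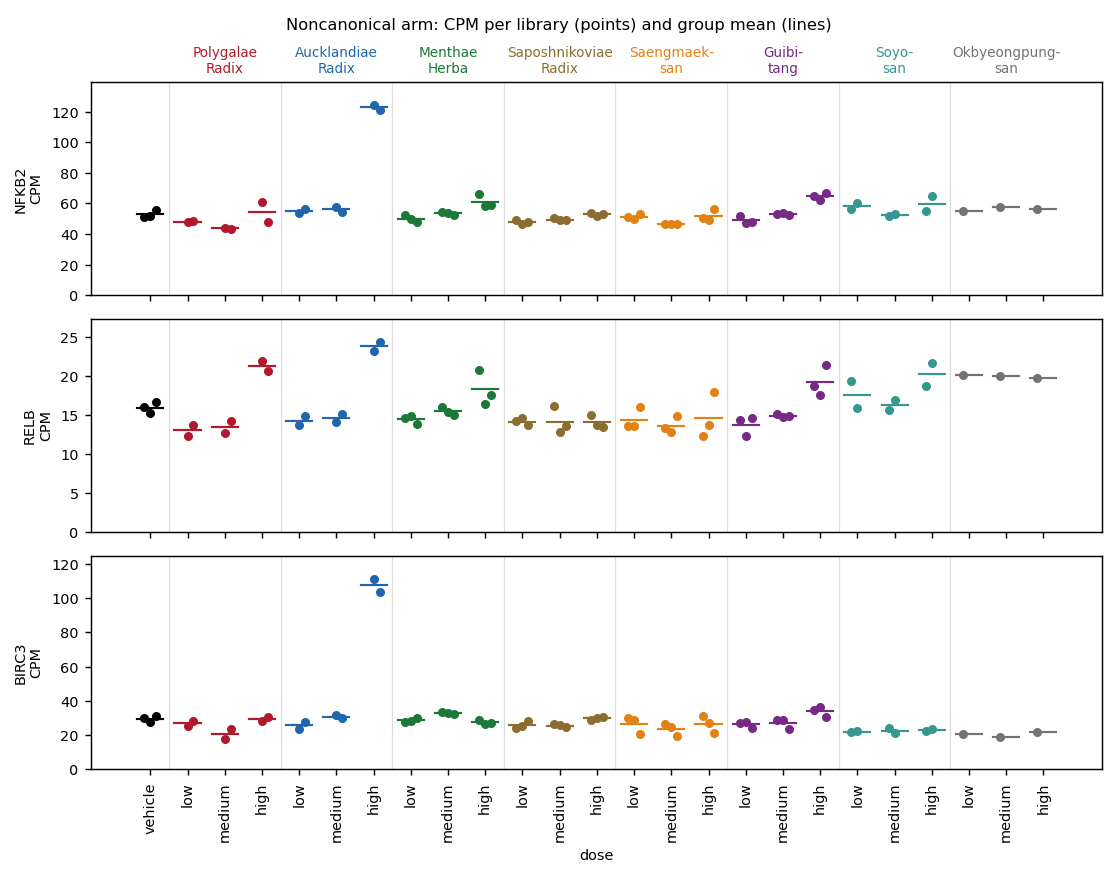
CPM of NFKB2, RELB and BIRC3 in each library (points) with the group mean (lines), for vehicle and the 3 doses of 8 extracts. The 2 Aucklandiae Radix high dose libraries stand alone for NFKB2 (125 and 121 CPM) and BIRC3 (111 and 104 CPM), while RELB is highest in the same libraries (23.3 and 24.5 CPM) but near to several other high dose libraries.

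The subunit messages of the 2 arms were also set against each other within each library. The log2 ratio of NFKB2 to NFKB1, in CPM per kb, was 2.34 and 2.37 in Aucklandiae Radix high dose libraries, against 1.09 to 1.24 in vehicle libraries. The next highest group means were 1.502 and 1.501, in Soyo-san high and low dose libraries, while the Soyo-san medium dose averaged 1.23. The log2 ratio of RELB to RELA averaged −0.88 in Aucklandiae Radix high dose libraries, against −1.55 in vehicle libraries and −1.37 in Polygalae Radix high dose libraries. This second ratio spread widely within mixed groups, from −1.63 to −1.11 in the Polygalae Radix high dose pair, and RELA differs with class, whose part in the ratio was not tested.

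**Figure D4:**
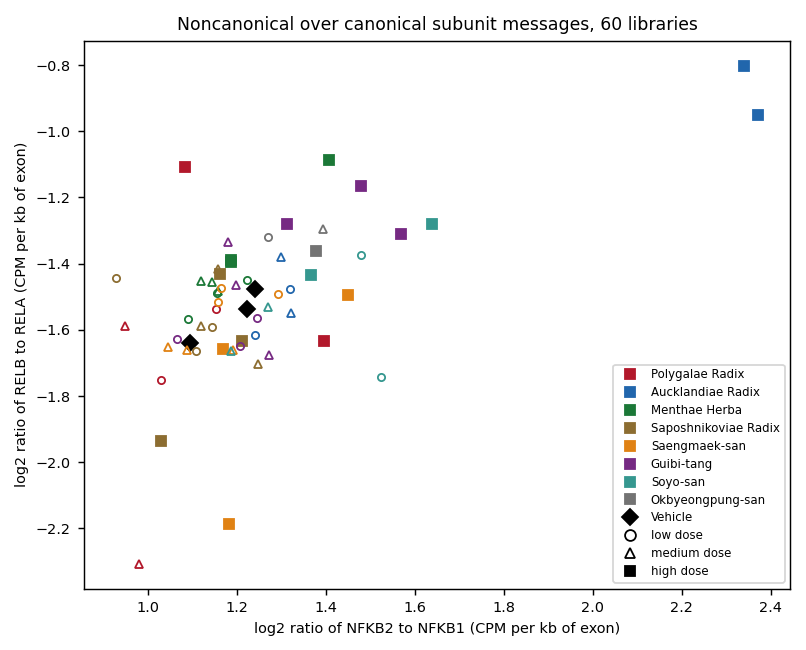
Log2 ratio of RELB to RELA against log2 ratio of NFKB2 to NFKB1, both in CPM per kb of exon, for 60 libraries coloured by extract, with the dose shown by the symbol. The 2 Aucklandiae Radix high dose libraries sit at 2.34 and 2.37 on the horizontal axis, apart from all others.

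TNFAIP2, a TNF-induced gene linked to membrane protrusions, was the most abundant of the 10 per kilobase and fell with Polygalae Radix, while it was called slightly higher with Aucklandiae Radix. Polygalae Radix libraries held 212 and 202 CPM at the high dose, 285 and 302 CPM at the medium dose and 327 and 320 CPM at the low dose, against 331, 327 and 345 CPM in vehicle libraries. The high and the medium dose lie below vehicle without overlap. TNFAIP2 fell to 0.619 of the vehicle level at the high dose (log2 −0.69 ± 0.06, edgeR adjusted p = 7.14e-13), and the medium dose difference was −0.19 ± 0.06 (adjusted p = 0.0267). Menthae Herba high dose libraries, at 276, 277 and 284 CPM, also lay below vehicle, by −0.26 ± 0.05 (edgeR adjusted p = 0.000243), and below their low dose, at 337, 349 and 319 CPM, by −0.26 ± 0.05 (adjusted p = 0.000318). The 2 opposite calls were small, at 0.16 ± 0.06 with Aucklandiae Radix (380 and 365 CPM, edgeR adjusted p = 0.0374) and 0.20 ± 0.06 with Soyo-san (368 and 399 CPM, adjusted p = 0.0113), and both had their libraries above every vehicle library. The Soyo-san call was lost without high dose replicate 2. The Aucklandiae Radix value did not pass in 4 of 5 fits that left out 1 library. Nor did it pass with class as a covariate, which for this extract rests on other groups (0.13 ± 0.06, adjusted p = 0.114).

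SOD2, the mitochondrial superoxide dismutase, changed little. Menthae Herba high dose libraries held 94.1, 90.3 and 91.2 CPM, the 3 highest of the 60, against 72.8, 78.9 and 75.2 CPM in vehicle libraries (0.28 ± 0.09, edgeR adjusted p = 0.0108, and 0.0518 without vehicle replicate 1). With class as a covariate, which for this extract rests on other groups, that difference was 0.05 ± 0.05 (adjusted p = 0.53). Over the low dose, at 83.7, 79.0 and 85.1 CPM, the difference was 0.15 ± 0.09. Polygalae Radix high dose libraries held 58.2 CPM (class 2) and 73.7 CPM (class 1), against 76.0 and 82.4 CPM at the low dose, a fall of −0.26 ± 0.10 (edgeR adjusted p = 0.0316) that did not pass without high dose replicate 2 or low dose replicate 3. The exons of SOD2 overlap those of WTAP on the other strand, a gene that was itself detected. The sources used here do not say whether strand was used in counting, so SOD2 values are uncertain.

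ICAM1, the adhesion molecule that leukocytes bind, lay between 0.356 and 1.61 CPM in all 60 libraries, with a lowest expected count of 10.62. No comparison passed the test, and the intervals are wide. Soyo-san high dose libraries, at 1.21 and 1.61 CPM, lay above the vehicle libraries at 0.736, 1.05 and 1.08 CPM, with a 95% interval of the log2 fold change from −0.11 to 1.16. With Polygalae Radix, at 0.710 and 0.592 CPM, it ran from −1.28 to 0.12. Antisense genes across ICAM1 exons had median counts of 0 and 1.

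**Figure D5:**
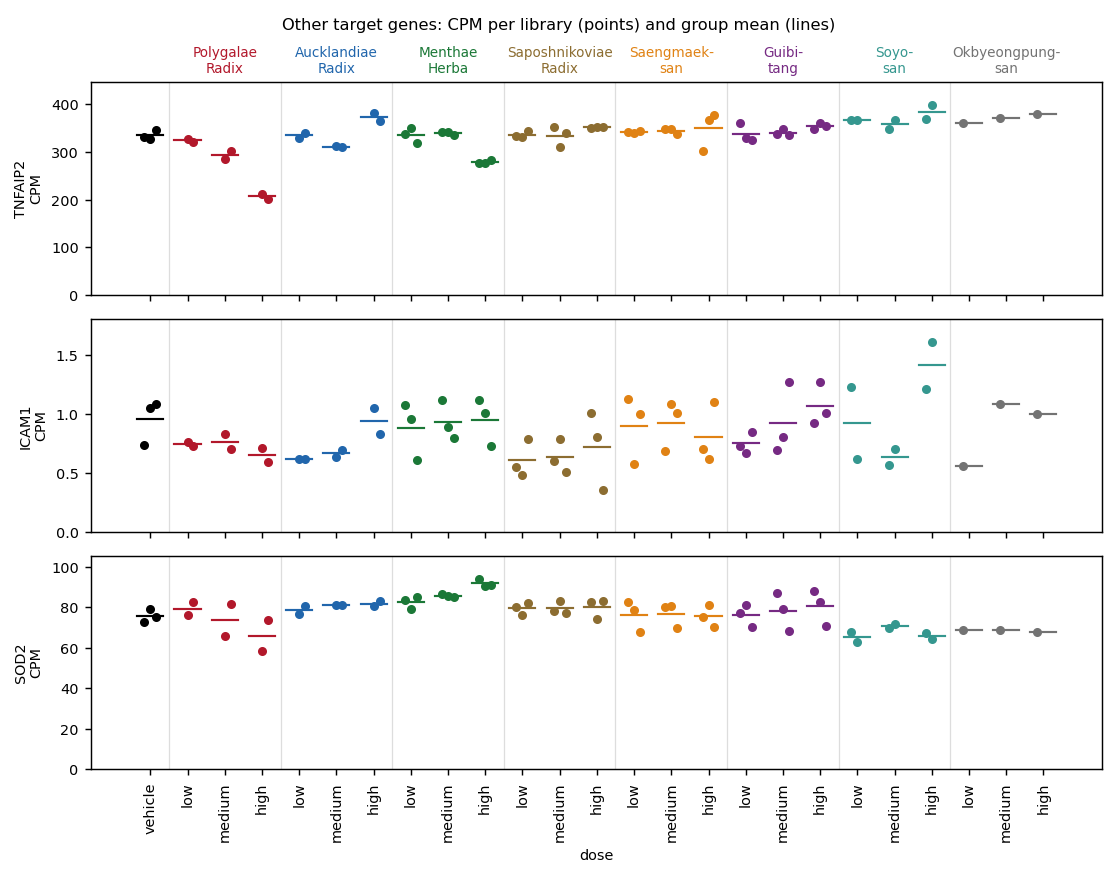
CPM of TNFAIP2, ICAM1 and SOD2 in each library (points) with the group mean (lines), for vehicle and the 3 doses of 8 extracts. TNFAIP2 falls with the dose of Polygalae Radix to 212 and 202 CPM, ICAM1 stays at 1.61 CPM or less, and SOD2 is highest in Menthae Herba high dose libraries (94.1, 90.3 and 91.2 CPM).

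The contrast between the 2 herbs with the strongest changes was tested directly at their high doses, which differ slightly (380 and 370 µg/mL). Polygalae Radix minus Aucklandiae Radix was 1.09 ± 0.14 for TNFAIP3 (edgeR adjusted p = 1.43e-08) and 0.68 ± 0.09 for NFKBIA (adjusted p = 5.41e-09). It was −1.88 ± 0.14 for BIRC3 (edgeR adjusted p = 4.32e-15), −1.18 ± 0.08 for NFKB2 (adjusted p = 5.96e-17) and −0.85 ± 0.07 for TNFAIP2 (adjusted p = 1.93e-14). For RELB it was −0.17 ± 0.12, with a 95% interval from −0.41 to 0.08. In all, 7 of the 10 genes were called, where 58.1% of all genes were, so the count itself is near the background. The RELA (0.36 ± 0.14) and SOD2 (−0.31 ± 0.10) values did not pass within class 1, at adjusted p values of 0.783 and 0.0617 in edgeR, with 1 Polygalae Radix library there. The 5 genes named first passed there too.

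At 500 µg/mL, Menthae Herba minus Saposhnikoviae Radix was 0.38 ± 0.10 for RELB (edgeR adjusted p = 0.00677), 0.21 ± 0.06 for NFKB2 (adjusted p = 0.0171) and −0.33 ± 0.05 for TNFAIP2 (adjusted p = 8.35e-06), where 16.2% of all genes were called. The RELB and NFKB2 calls did not hold without Menthae Herba high dose replicate 1, nor that of NFKB2 without Saposhnikoviae Radix high dose replicate 2. Guibi-tang minus Saengmaek-san at the same dose was 0.32 ± 0.06 for NFKB2 (edgeR adjusted p = 0.00162) and 0.39 ± 0.10 for RELB (adjusted p = 0.0295), where 2.2% of all genes were called. The RELB ranges of the 2 formulas overlap, since Guibi-tang held 18.8, 17.5 and 21.5 CPM and Saengmaek-san 12.4, 13.7 and 18.0 CPM, and the RELB call was lost in 4 of 6 fits that left out 1 library.

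Saposhnikoviae Radix and Saengmaek-san gave no call for any of the 10 genes at any dose against vehicle. At the high dose of Saposhnikoviae Radix the estimates ran from −0.44 ± 0.30 (ICAM1) to 0.23 ± 0.12 (TNFAIP3), and for NFKB2 and BIRC3 the 95% intervals were −0.12 to 0.13 and −0.23 to 0.23. At the high dose of Saengmaek-san they ran from −0.28 ± 0.30 (ICAM1) to 0.15 ± 0.07 (NFKBIA). Over their own low doses edgeR called 0 of the 10 genes with Saposhnikoviae Radix, with Saengmaek-san and with Soyo-san, where it called 0.0707%, 0.0707% and 1.24% of all genes. Of these 30 values, 2 had an unadjusted p under 0.05, and DESeq2 called 0.

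At the lower doses calls were few. The medium dose against vehicle gave 5 calls in 70 values over the 7 extracts, all with Polygalae Radix, and the low dose gave 1, BIRC3 with Soyo-san. With the other 6 extracts at the medium dose edgeR called 0 of 60 values, with 6 at an unadjusted p under 0.05 and 0 by DESeq2, and at the low dose 0 of 60, with 7 at an unadjusted p under 0.05 and 1 by DESeq2. The share of all genes called at the medium dose was 5.59% with Aucklandiae Radix, 5.54% with Menthae Herba, 7.94% with Saposhnikoviae Radix, 0.391% with Saengmaek-san, 0.582% with Guibi-tang and 0.0652% with Soyo-san. At the low dose it was 13.1% with Menthae Herba, 7.24% with Aucklandiae Radix, 6.39% with Polygalae Radix, 4.1% with Saposhnikoviae Radix, 0.522% with Saengmaek-san and 0.261% with Guibi-tang. Between the medium and the low dose the calls were NFKBIA and TNFAIP3 with Polygalae Radix. With the other 6 extracts edgeR called 0 of 60 values there, with 3 at an unadjusted p under 0.05 and 0 by DESeq2, where it called 0.174% of all genes with Menthae Herba, 0.0109% with Soyo-san and 0% with Saposhnikoviae Radix, Saengmaek-san and Guibi-tang.

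Okbyeongpung-san had 1 library per dose, so its values have no replicate check. RELB stood at 20.2, 20.0 and 19.8 CPM at the low, medium and high dose, above all 3 vehicle libraries, and BIRC3 at 20.6, 19.1 and 21.5 CPM, below all 3. BIRC3 was past a 1.5-fold difference at the medium dose (log2 ratio −0.62 to the vehicle mean), where 4.38% of genes were past it. At the high and the low dose 0 of the 10 genes were past it, where 3.06% and 3.11% of genes were.

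Other genes of the pathway were read from lists by role. With Aucklandiae Radix at the high dose over its low dose, where 18.4% of all genes were called, 3 of 10 tested ligands and receptors rose and 0 fell, and the leading gene was CD40, a receptor that feeds the noncanonical arm, at 6.02 against 3.05 CPM (0.98 ± 0.19, edgeR adjusted p = 0.000104). Of 21 adaptors and kinases 3 rose and 1 fell, with MAP3K14, which encodes NIK, at 135 against 77.1 CPM (0.81 ± 0.08, edgeR adjusted p = 4.9e-10). Vehicle lay between these at 112 CPM, so over vehicle the rise of MAP3K14 was 0.28 ± 0.07 (adjusted p = 0.0034). The Aucklandiae Radix low dose lay below vehicle by −0.54 ± 0.08. For MAP3K14 the low doses of Polygalae Radix (−0.60), Menthae Herba (−0.49) and Saposhnikoviae Radix (−0.54) lay below vehicle too. Of 21 other target genes 8 rose and 2 fell. BCL2A1, an antiapoptotic BCL2 relative, rose by 1.40 ± 0.19 and the chemokine gene CCL2 by 1.16 ± 0.21, while PTGS2, which encodes cyclooxygenase-2, fell by −1.35 ± 0.16. Of 11 other negative regulators 2 rose and 1 fell, and the one that fell was ZC3H12A, the RNase regnase-1, at −1.24 ± 0.14. The medians were −0.02, 0.06, 0.14 and 0.12 in these 4 lists, against 0.01 over all genes. The leukocyte marker CD14 was higher too (5.66 against 3.31 CPM), while CD3E was at 0 in all libraries. The epithelial markers KRT8 and KRT18 fell in the same comparison, by −0.60 ± 0.12 and −0.73 ± 0.11, as did the fibroblast marker COL1A1, by −1.01 ± 0.14, and their part in the other changes was not tested.

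With Polygalae Radix over its low dose, where 57% of all genes were called, 11 of the 21 adaptors and kinases rose and 6 fell, with TRAF5 at 0.96 ± 0.08, TRAF6 at 0.82 ± 0.11 and IKBKE, an IKK-related kinase, at −0.79 ± 0.13. Of 11 other negative regulators 3 rose and 6 fell, with COMMD1, a factor that limits RELA on chromatin, at −1.32 ± 0.13. Of 21 other target genes 4 rose and 7 fell, a share near that of all genes, and over vehicle 7 rose and 7 fell. IL32 stood at 0.310 against 2.90 CPM (−3.25 ± 0.27, edgeR adjusted p = 1.12e-13) and PLAU, which encodes urokinase, at 15.9 against 50.1 CPM (−1.65 ± 0.11). These medians were 0.40, −0.25 and 0.04, against 0.04 over all genes. The epithelial markers KRT8 and KRT18 fell in the same libraries, by −2.92 ± 0.13 and −2.75 ± 0.12, and their part in the other changes was not tested.

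With Menthae Herba over its low dose, where 15.5% of all genes were called, CXCL8 (1.11 ± 0.28, edgeR adjusted p = 0.00402) and CXCL2 (1.10 ± 0.17, adjusted p = 2.16e-06), which encode chemokines that attract neutrophils, led 4 of 21 target genes that rose, and 5 fell. MAP3K14 fell there, by −0.25 ± 0.07, while NFKB2 and RELB rose. KRT8, KRT18 and CDH1 also fell there, by −0.64 ± 0.10, −0.57 ± 0.09 and −1.05 ± 0.08. With Guibi-tang over its low dose, where 2.94% of all genes were called, TNFRSF11A, which encodes RANK, rose by 0.43 ± 0.10 (edgeR adjusted p = 0.0076) and TRAF3, an adaptor that keeps NIK low, by 0.21 ± 0.05 (adjusted p = 0.0194). Of 21 target genes 0 rose and 2 fell, with PTGS2 at −0.67 ± 0.13. KRT8 and KRT18 fell in these libraries too, by −0.55 ± 0.10 and −0.54 ± 0.09. The part of these markers in the other changes was not tested.

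Genes with the pattern most like NFKB2 were ranked by Spearman's rho of group mean log2 CPM over the 25 groups, among 11438 genes. RELB and KCNH3 came first (rho 0.84 each), followed by TPRA1 (0.80), KCNF1 (0.80) and SRRM3 (0.79). For NFKBIA the first was ALKBH2 (0.82), followed by LAMTOR1, LENG1, HDHD3 and PTPMT1 (0.75 to 0.74). The groups share library class and set, so these values are descriptions. Among the 10 genes themselves the highest rho was that of NFKB2 with RELB, and the next was 0.69 for BIRC3 with SOD2, both of which differ with class.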

How the data were processed

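A549 cells were sequenced in 60 libraries. The deposited values are expected counts per gene, estimated by the authors with RSEM 1.3.3, per the submitters' processing notes. These notes also list STAR 2.7.3a, Trim Galore 0.6.5, FastQC 0.11.9 and the build GRCh38 (hg38). The sources used here give neither the annotation release nor the strand setting.

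Expected counts were rounded to whole counts, since 9.953% of values were not whole (tolerance 1e-09). Gene symbols were matched by Ensembl ID for 42192 IDs, and gene models were taken from GENCODE 29. Libraries were scaled by TMM, genes with low counts were dropped with filterByExpr, and edgeR 4.0.16 (limma 3.58.1, R 4.3.3) fitted 1 mean per group over 57 libraries of 22 groups, leaving 35 residual degrees of freedom. The 38 comparisons used two-sided quasi-likelihood tests with Benjamini-Hochberg adjustment over 18396 genes at a threshold of 0.05. Intervals are at 95%. Okbyeongpung-san was left out of the fit and compared with the vehicle mean as log2(CPM + 0.5). The test was checked on simulated counts that gave all genes and groups the same dispersion and held no class effect. That check therefore says nothing of uneven spread between groups or of library class.

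Alternatives were DESeq2 1.42.0, its size factors, no filter, a replicate block, library class as a covariate, only the libraries compared and leaving out each library. Fits inside a class were added after seeing the data. The 10 genes, the lists and the class covariate were chosen with earlier results of these data known. All 10 genes are named, with up to 3 genes of each other list by the largest absolute fold change past the threshold. Same-numbered libraries met the rule for deviating together (3 correlations over 0.1) only between the medium and low dose of Saengmaek-san and of Guibi-tang. The number also follows library class there. Between the high and low dose the correlations were 0.099 to 0.544 for Guibi-tang, just short of the rule, and 0.055 to 0.441 for Saengmaek-san. Replicate pairs within a group all differed by more than sampling noise, and libraries of different groups were not compared in this way. The noise was uneven, with a chi-square per gene of 2.64 to 2.90 between vehicle libraries. It was 100 in the Polygalae Radix high dose pair and 126 in the medium dose pair, which both mix the classes. All groups share 1 estimate of the spread, which may be too small for such pairs.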

Additional observations from a re-analysis of the deposited data

How the results depend on the processing

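Of 48 values called in the high dose comparisons, 0 changed sign under any alternative, and 1 lost its call with DESeq2's size factors, 0 with DESeq2's test, 9 without the filter, 2 with library class as a covariate, 10 with only the libraries compared and 20 without 1 library. RELA against vehicle was not called and turned positive with class as a covariate for Aucklandiae Radix (0.22, adjusted p = 0.0156), Menthae Herba (0.25, adjusted p = 0.00436) and Guibi-tang (0.18, adjusted p = 0.045). These adjusted p values are from edgeR, and for Aucklandiae Radix and Menthae Herba the class effect rests on other groups.

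Counts of the 10 genes called against vehicle at the high dose became 7 inside class 2 for Polygalae Radix, and 2 without the filter for Menthae Herba and for Soyo-san (8 inside class 2). They became 1 with class as a covariate for Saposhnikoviae Radix, where calls over all genes went from 192 to 1290. For Saengmaek-san the counts became 2 with that covariate (all genes from 698 to 2894) and 2 inside class 2 (2875). For Guibi-tang the counts became 1 without the filter (all genes from 1759 to 1952) and 5 with the covariate (3479). Over the low dose they became 1 without the filter for Saengmaek-san, and 1 inside class 2 and 1 with only the libraries compared for Guibi-tang. Calls at the medium dose against vehicle, 5 in all, became 15 with the covariate, 9 inside class 2 and 9 with only the libraries compared. Calls at the low dose, 1 in all, became 2 with DESeq2's size factors, 4 with DESeq2's test, 19 with the covariate, 6 inside class 2 and 15 with only the libraries compared. Medium against low, 2 in all, became 0 inside class 1 and 0 with only the libraries compared, and the differences between extracts inside class 2 gave 1, against 2 in the same comparison. Calls over all genes moved under these settings as well. For Soyo-san at the high dose they went from 5260 to 4828 without the filter and to 7174 inside class 2. All Soyo-san and vehicle libraries are of class 2, so the same libraries were compared there, with the shared spread estimated anew. With the covariate, calls over all genes rose for every tested extract at the medium and low dose. For Menthae Herba they went from 1019 to 1988 and from 2401 to 3820. The causes were not tested.

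With the replicate number as a block, the low dose calls became 2, and with a block within library sets the medium against low calls became 4. The block lost NFKB2 at the high dose of Soyo-san against vehicle (0.18, adjusted p = 0.0576 in edgeR) and gained NFKB1 there (-0.15, adjusted p = 0.038), NFKB1 at the high dose of Menthae Herba (0.13, adjusted p = 0.0444) and NFKB1 at the low dose of Soyo-san (-0.19, adjusted p = 0.0255).

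Without 1 library each, the high dose counts ran from 4 to 7 (Polygalae Radix), 4 to 6 (Aucklandiae Radix), 2 to 4 (Menthae Herba), 0 to 0 (Saposhnikoviae Radix), 0 to 1 (Saengmaek-san), 1 to 2 (Guibi-tang) and 0 to 3 (Soyo-san). Over the low dose they ran from 4 to 7, 3 to 4, 2 to 4, 0 to 0, 0 to 0, 2 to 2 and 0 to 0 in the same order. The medium dose calls ran from 2 to 6, the low dose calls from 0 to 2, medium against low from 0 to 4 and the differences from 10 to 12. Depth limits ICAM1, whose lowest expected count was 10.62.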
